A study of Mus musculus with 6 samples.

Results

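The Trim genes encode the tripartite motif proteins, most of which are ubiquitin ligases. Members were the genes whose symbol is Trim followed by a number and at most one letter, and which had a row of their own on the array. There were 58 such genes among 19938 genes tested. Of the 68 Trim genes of that form in RefSeq, 8 had only rows shared with another gene (Trim5, Trim17, Trim30b, Trim43a, Trim43b, Trim43c, Trim60 and Trim61) and 2 (Trim30c and Trim34b) were not matched to a row. Transcript levels were read on arrays from intestines of E14.5 mouse embryos, a stage before villi form. The Klf5-knockout group (genotype label Klf5D/D) and the control group (Klf5wt/wtShhEGFP/Cre+) held 3 arrays each. The strain background of both groups was mixed and part C57Bl/6. Every array carried RNA pooled from 2 intestines, from a segment anterior to the cecum. The label of the controls names the ShhEGFP/Cre allele, which as background drives Cre recombinase in the endodermal epithelium, and the label of the knockout group names only Klf5D/D. The question behind the comparison was which genes may depend on KLF5, a zinc-finger transcription factor of epithelia.

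As background, a typical TRIM protein has a RING finger that recruits a ubiquitin-loaded E2 enzyme, then B-boxes and a coiled coil through which it forms dimers. The carboxy-terminal domain, often a PRY-SPRY fold, picks the substrate. Many members act in innate immunity, where they mark viral RNA sensors or restrict retroviruses, and others act on chromatin, muscle, axons or translation. Trim31, Trim15 and Trim40 are known for expression in the gut, and Trim50 for expression in gastric parietal cells; these 4 were the gut-enriched members set against the other 54.

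Trim31 lies in a row of Trim genes on chromosome 17, in the RefSeq order Trim26, Trim15, Trim10, Trim40 and Trim31. Its start region and those of Trim15 and Trim40 are shown because these 3 neighbours are all known from the gut and had unlike fold changes. The windows hold 250 bases before and 50 after an annotated start (RefSeq, GRCm38.p6), 5′ to 3′ on the gene's strand. They lie at chr17:36897880-36898179 (plus strand) for Trim31, chr17:36867161-36867460 (minus strand) for Trim15 and chr17:36890076-36890375 (minus strand) for Trim40. Capitals mark CACCC or GGGTG, the core of a Klf-type site, and GGACTTTG (CAAAGTCC when read on the opposite strand), letters found in Hnf4-type sites.
Trim31: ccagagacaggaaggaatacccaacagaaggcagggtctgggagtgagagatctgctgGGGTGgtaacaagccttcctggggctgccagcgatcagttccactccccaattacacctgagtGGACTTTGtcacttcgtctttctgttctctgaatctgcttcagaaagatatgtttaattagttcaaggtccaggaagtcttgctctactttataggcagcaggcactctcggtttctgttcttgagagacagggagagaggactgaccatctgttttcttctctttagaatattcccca
Trim15: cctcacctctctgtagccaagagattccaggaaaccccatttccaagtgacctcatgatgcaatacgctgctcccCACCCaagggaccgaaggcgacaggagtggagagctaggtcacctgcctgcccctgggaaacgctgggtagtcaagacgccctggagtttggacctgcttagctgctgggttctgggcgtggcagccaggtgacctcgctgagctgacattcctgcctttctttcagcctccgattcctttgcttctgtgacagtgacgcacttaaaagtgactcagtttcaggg
Trim40: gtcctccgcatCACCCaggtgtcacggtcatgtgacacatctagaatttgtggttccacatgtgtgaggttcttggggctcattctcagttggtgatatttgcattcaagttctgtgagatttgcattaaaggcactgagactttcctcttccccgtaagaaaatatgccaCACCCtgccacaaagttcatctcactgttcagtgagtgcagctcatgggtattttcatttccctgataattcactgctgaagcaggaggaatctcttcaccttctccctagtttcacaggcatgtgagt
The Trim31 window held 1 CACCC-type and 1 Hnf4-type match, which did not overlap. The Trim15 window held 1 CACCC-type match and the Trim40 window 2, with no Hnf4-type match in either. Over 32851 windows of 300 bases, 57.5% held CACCC or its complement and 1.42% the Hnf4-type letters. Counted by gene, the shares were 59.8% and 1.63% of 27025 genes. Of the 46 Trim genes with a window, 31 held the CACCC type and 1 (Trim31) the Hnf4 type. These matches are letters in a window, and the motifs were chosen with the Trim31 sequence in view.

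Klf5 itself read 10.24, 10.49 and 10.34 on the log2 scale in the 3 Klf5-knockout arrays, in replicate order, and 11.55, 11.74 and 11.77 in the controls, which is 39.8% of the control level. The position of its probes relative to the deletion was not analysed here. Pairs of arrays correlated across rows at 0.994 to 0.997 within a group and 0.989 to 0.993 between groups. The sex of the pools also differed. Xist, the RNA of the inactive X chromosome, read 5.89 to 6.47 in the Klf5-knockout arrays and 11.93 to 12.61 in the controls. The share of male signal, from 3 Y-linked genes, was 95.1% to 103% in the Klf5-knockout arrays and 0%, 46.6% and 41.5% in control replicates 1 to 3. For each gene the lowest array was set to 0% and the mean of the Klf5-knockout arrays to the full share. The scale thus uses the group labels and is relative, and the 0% and the knockout mean were fixed by it. The knockout and control values of that share do not overlap. With that share as a covariate, 1 of the 16 Trim calls below was kept, that of Trim31. In that fit the median standard error over all genes was 0.147 against 0.059, all 16 genes kept their sign, and 0.421% of all genes passed.

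Of the 58 Trim genes, 8 fell and 8 rose in the Klf5-knockout intestine, at an adjusted p under 0.05 by limma, a linear model with moderated variance. The share called was 27.6%, against 17.5% of all genes. By direction it was 13.8% lower and 13.8% higher, against 8.58% of all genes lower and 8.95% higher. With each array centred on its median, 1767 of all genes were lower and 1216 higher, against 1711 and 1785, and 7 Trim genes were lower and 5 higher. The median log2 fold change was 0.06 over the Trim genes and 0.02 over all genes. In size, without sign, the medians were 0.11 and 0.08. Trim31 passed the test and changed by at least 2-fold, as did 1.22% of all genes, and no other member did. The other 15 called members changed by 0.16 to 0.56 on the log2 scale. The 42 members that did not pass lay between −0.18 and 0.37. The groups did not overlap for 26 Trim genes (44.8%), against 36.0% of all genes. Each value is a log2 signal after RMA, and each fold change is Klf5-knockout minus control. Counts moved with single arrays: leaving out 1 array at a time gave 6 to 7 lower and 2 to 6 higher, and without control replicate 2 there were 6 lower and 2 higher. The share of all genes called fell in these fits too, to between 10% and 13.8%, with 10% (1132 lower and 868 higher) without control replicate 2. The excess of the Trim share over all genes depended on the brightness cut. With the dimmest 25% of genes left out, 16 of 48 Trim genes passed, against 25.4% of all genes. With the dimmest 50% left out no excess was seen: 9 of 25 Trim genes passed, and 36.1% of all genes did.

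**Figure D1:**
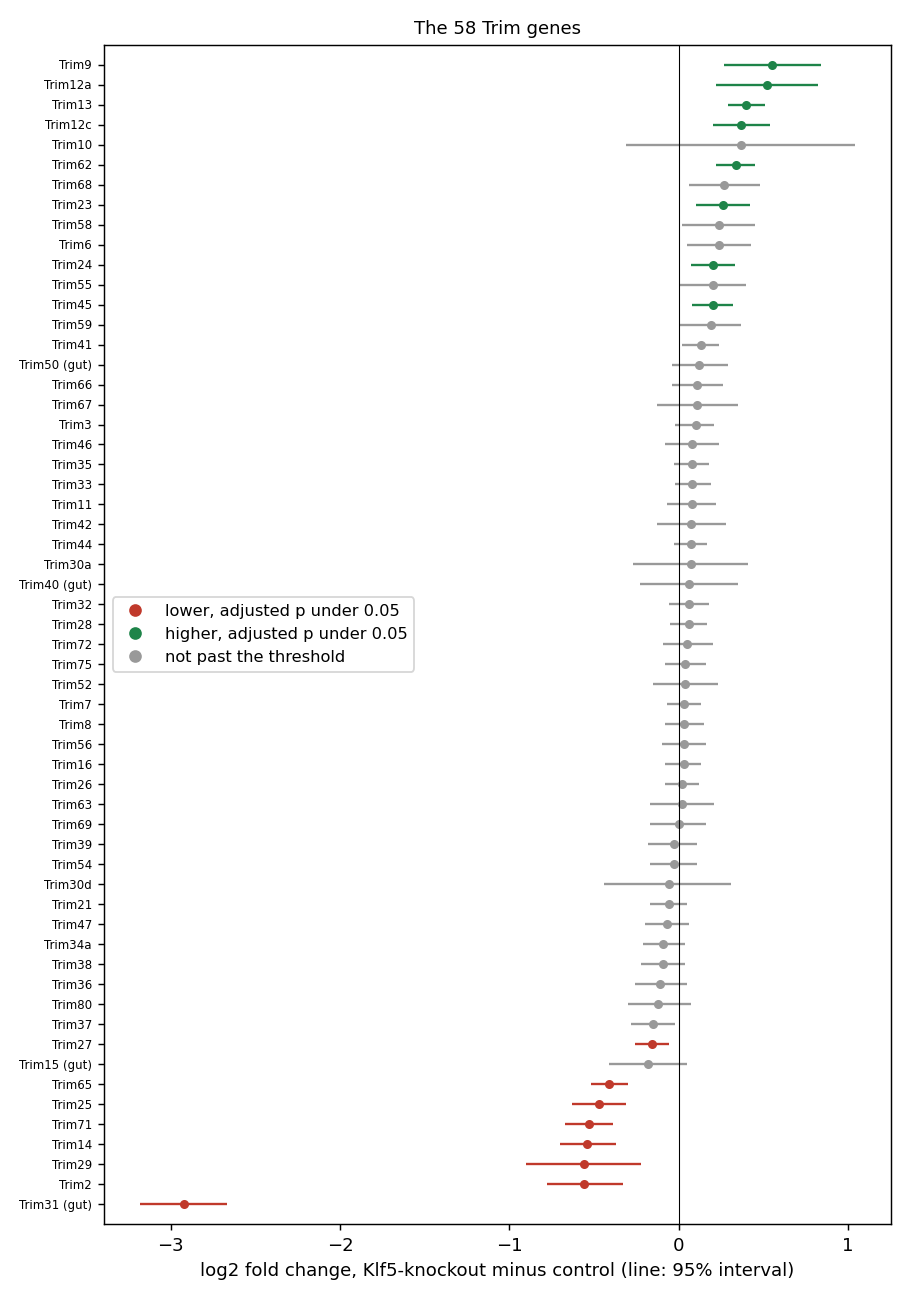
The log2 fold change (Klf5-knockout minus control) of each of the 58 Trim genes with its 95% interval from limma, ordered by value; red and green mark the 8 lower and 8 higher genes past an adjusted p of 0.05, and (gut) marks the 4 gut-enriched members. Trim31 stands at −2.92, while every other member lies between −0.56 and 0.55.

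Trim31 was the member that fell the most. TRIM31 is a RING ligase without a PRY-SPRY domain that ubiquitinates the antiviral adaptor MAVS and the inflammasome sensor NLRP3. Its signal read 6.38, 6.58 and 6.42 on the Klf5-knockout arrays against 9.23, 9.63 and 9.30 on the controls, in replicate order. All knockout arrays lay below all controls, and the gap between the groups was wider than the range within either. The means were 6.46 ± 0.11 and 9.39 ± 0.21 (SD, n = 3 arrays each). Trim31 fell by 2.92 on the log2 scale (SE 0.11, 95% interval −3.18 to −2.67, adjusted p = 1.15e-05), to 13.2% of the control level. It was the 11th largest fall among the 19938 genes. Leaving out 1 array moved the value between −3.00 and −2.80, and with the male share as covariate it was −3.34 (SE 0.24, adjusted p = 0.00708). By a two-sided exact permutation test p was 0.1, the smallest that 3 arrays against 3 can reach. The signal in the knockout arrays lay below 6.84, the level under which the dimmest 25% of genes lie, where an array understates falls.

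The other gut-enriched members did not pass the test. Trim15, a PRY-SPRY member found at focal adhesions, read 6.28, 6.68 and 6.61 in the Klf5-knockout arrays and 6.69, 6.69 and 6.72 in the controls. Its groups touched without overlapping, and Klf5-knockout replicate 1 lay apart from the other knockout arrays. Its log2 fold change was −0.18 (SE 0.10, 95% interval −0.41 to 0.05, adjusted p = 0.291; exact permutation p = 0.1). Trim40, which restrains NF-kappaB signalling in the gut, read 6.76, 7.01 and 6.70 against 7.02, 6.68 and 6.60. The groups overlapped, with a log2 fold change of 0.06 (SE 0.12, 95% interval −0.23 to 0.35, adjusted p = 0.82; exact permutation p = 0.6). Trim50 read 7.03, 7.15 and 7.11 against 7.10, 6.98 and 6.85, also overlapping, with a log2 fold change of 0.12 (SE 0.07, 95% interval −0.04 to 0.29, adjusted p = 0.31). Trim15 and Trim40 were among the 10 Trim genes in the dimmest 25% of genes, and Trim50 lay just above that level. The median log2 fold change of the 4 gut-enriched members was −0.06 and that of the other 54 members was 0.06. With the dimmest 25% of genes left out, Trim31 and Trim50 stayed, and the gut-enriched median minus that of the other members was −1.47 in place of −0.12. Without Klf5-knockout replicate 1 it was −0.04, and without Klf5-knockout replicate 2 it was −0.18. The gut-enriched list thus held 1 called gene, Trim31, and the other members held 7 falls and 8 rises. The list was written from known tissue expression with the fall of Trim31 already known, so it is no independent evidence.

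The neighbours of Trim31 gave a comparison within the same stretch of chromosome 17. Trim26, a PRY-SPRY ligase, read 9.11, 9.07 and 9.05 in the Klf5-knockout arrays and 9.09, 9.03 and 9.05 in the controls, a log2 fold change of 0.02 (SE 0.04). Trim10, a member of red cell precursors, was the most variable Trim gene, at 7.05, 8.03 and 7.97 against 7.37, 6.91 and 7.68 (log2 fold change 0.37, SE 0.29, adjusted p = 0.471). The summed signal of the red cell markers Alas2 and Slc4a1 also varied within both groups, from 1560 to 4040 on the linear scale in the knockout arrays and from 1810 to 3230 in the controls. Its part in the Trim10 values was not tested. Relative to the mean of its 4 neighbours, Trim31 stood at −0.92, −1.11 and −1.16 in the Klf5-knockout arrays and at 1.69, 2.30 and 1.79 in the controls. The difference of these differences was −2.99 (exact two-sided permutation p = 0.1, the smallest possible). The 4 neighbours had fold changes between −0.18 and 0.37, so this value mostly repeats the fall of Trim31 and is no separate evidence. Trim15 and Trim40 lay in the dimmest 25% of genes, where changes are understated.

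**Figure D2:**
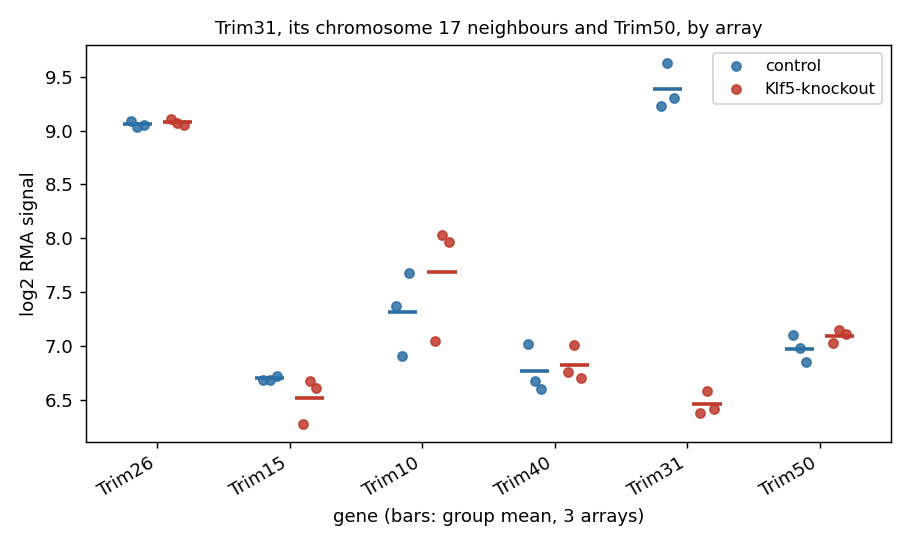
Log2 RMA signal on each array for the 5 Trim genes of the chromosome 17 stretch, in RefSeq order, and for Trim50; points are single arrays (3 per group) and bars are group means. Trim31 reads 6.38 to 6.58 in the Klf5-knockout arrays and 9.23 to 9.63 in the controls, while the groups of the other genes lie close together or overlap.

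Markers of the epithelium moved with Trim31. Of 14 epithelial markers, such as Epcam, Cdh1 and Krt19, 13 fell and 0 rose (of all genes, 8.58% fell and 8.95% rose), with a median log2 fold change of −0.83 and a lowest value of −1.52 (Krt19). Cldn6 (0.15) did not pass. With the male share as covariate, 0 of the 14 markers passed in either direction, as against 0.421% of all genes. Their summed linear signal was 24500 to 28500 in the Klf5-knockout arrays and 42500 to 44500 in the controls, and none lay near 3.51, the lowest value of the table. In whole intestine, fewer epithelial cells and less RNA per cell cannot be told apart. Trim31 minus the mean of the 14 markers was −4.08, −4.05 and −4.28 in the Klf5-knockout arrays and −2.14, −1.77 and −2.13 in the controls. Relative to the markers' mean, Trim31 thus fell by 2.12 on the log2 scale (exact two-sided permutation p = 0.1, the smallest possible). The gap between the groups in Trim31 alone was wider than the range of the markers' mean over all arrays. This p was therefore set by the fall of Trim31 and is no separate evidence. The falls of the other 7 lower Trim genes, 0.16 to 0.56, were smaller than the median fall of the markers, and the part of the epithelial markers in them was not tested.

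Among members linked to interferon and antiviral defence, 13 had a row, of which 3 fell, 2 rose and 8 did not pass, with a median of −0.06; of all genes, 8.58% fell and 8.95% rose. The 3 that fell, Trim14, Trim25 and Trim65, act on the pathway from RNA sensors to MAVS. Trim14, an adaptor at MAVS that lacks a RING finger, read 8.08, 8.27 and 8.29 in the Klf5-knockout arrays and 8.77, 8.81 and 8.67 in the controls. It fell by 0.54 (SE 0.07, adjusted p = 0.0024). Trim25, the ligase that ubiquitinates the RNA sensor RIG-I, read 10.01, 9.83 and 9.83 against 10.27, 10.40 and 10.41. It fell by 0.47 (SE 0.07, adjusted p = 0.00358). Trim65, a ligase of the RNA sensor encoded by Ifih1, read 8.28, 8.25 and 8.34 against 8.70, 8.65 and 8.73. It fell by 0.41 (SE 0.05, adjusted p = 0.00141). In all 3 every knockout array lay below every control, and each kept its call on leaving out any one array.

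The partners of these ligases were measured too. Ddx58, the gene of RIG-I, did not pass (0.05, SE 0.06, adjusted p = 0.677), and its groups overlapped. Of 19 interferon response genes with a row, 5 fell, 2 rose (Ifit2 by 0.25 and Stat2 by 0.16) and 12 did not pass, with a median of −0.08, against 8.58% lower and 8.95% higher among all genes. Leaving out 1 array at a time gave 2 to 4 lower and 0 to 1 higher (10% to 13.8% of all genes called in either direction), with the 2 lower reached without control replicate 2. Irf1, an interferon-induced transcription factor, fell by 0.48 in its brightest row (SE 0.05, adjusted p = 0.00107). With all rows of Irf1 averaged the value was −0.26 (limma adjusted p = 0.0139), so its rows differ in the size of the change. The antiviral gene Oasl2 fell by 0.32 (SE 0.06, adjusted p = 0.0129). Irf7, which drives type I interferon genes, fell by 0.38 (SE 0.07, adjusted p = 0.0123), and without control replicate 2 it no longer passed (−0.34, adjusted p = 0.0511). Usp18 had the highest value of the list, 0.36 (SE 0.11, adjusted p = 0.0555), and did not pass, though its groups did not overlap. Ifih1 fell by 0.54 (SE 0.14, adjusted p = 0.0324). Ifih1 missed the threshold when Klf5-knockout replicate 1 or 3 or control replicate 1 or 2 was left out (−0.50, −0.46, −0.48 and −0.48, with adjusted p of 0.0782, 0.101, 0.0979 and 0.112 in that order). Mavs and Nlrp3, chosen for mention as targets of TRIM31, stood at −0.16 (SE 0.04, adjusted p = 0.0358) and 0.14 (SE 0.05, adjusted p = 0.108), and Mavs missed the threshold on leaving out any one array (adjusted p = 0.0663 to 0.118). Of 6 leukocyte markers, 0 passed limma's test and 0 had an unadjusted p under 0.05, with a median of −0.11 and a summed linear signal of 1720 to 2070 in the knockout arrays and 1970 to 2200 in the controls.

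The interferon-linked members that rose, Trim12a and Trim12c, are close relatives of the retroviral restriction factor gene Trim5 and lie beside it on chromosome 7. Their start regions are shown because the copies are nearly alike there. These windows lie mostly before the transcript, and the transcripts and array probes were not compared. The windows, from RefSeq on GRCm38.p6 and 5′ to 3′ on the gene's strand, lie at chr7:104315446-104315745 for Trim12a, chr7:104353300-104353599 for Trim12c and chr7:104288057-104288356 for Trim5, all on the minus strand, with CACCC or GGGTG in capitals.
Trim12a: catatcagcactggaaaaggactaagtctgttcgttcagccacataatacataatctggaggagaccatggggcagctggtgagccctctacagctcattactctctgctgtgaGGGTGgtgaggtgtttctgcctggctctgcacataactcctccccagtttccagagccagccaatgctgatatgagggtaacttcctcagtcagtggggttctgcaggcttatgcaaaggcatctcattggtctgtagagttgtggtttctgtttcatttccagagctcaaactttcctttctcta
Trim12c: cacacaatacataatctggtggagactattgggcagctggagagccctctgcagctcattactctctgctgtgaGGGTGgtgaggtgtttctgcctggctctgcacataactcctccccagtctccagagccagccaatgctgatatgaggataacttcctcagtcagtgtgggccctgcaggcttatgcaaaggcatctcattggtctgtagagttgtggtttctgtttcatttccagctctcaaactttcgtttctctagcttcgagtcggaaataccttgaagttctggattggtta
Trim5: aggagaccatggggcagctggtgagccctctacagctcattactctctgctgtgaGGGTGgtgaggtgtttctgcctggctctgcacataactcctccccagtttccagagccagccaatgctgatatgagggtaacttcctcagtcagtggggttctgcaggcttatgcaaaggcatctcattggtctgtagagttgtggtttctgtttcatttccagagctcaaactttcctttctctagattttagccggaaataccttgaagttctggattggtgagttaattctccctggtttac
In the best local alignment, Trim12a and Trim5 were identical over 241 of 241 aligned bases, and Trim12a and Trim12c over 247 of 260. Each window held 1 GGGTG. The Trim12a row read 8.37, 7.95 and 8.00 in the Klf5-knockout arrays and 7.72, 7.64 and 7.39 in the controls. It rose by 0.52 (SE 0.13, adjusted p = 0.0313). The Trim12c row read 7.40, 7.23 and 7.15 against 6.84, 6.87 and 6.97 and rose by 0.37 (SE 0.07, adjusted p = 0.0137). For both rows every knockout array lay above every control, and Klf5-knockout replicate 1 was the highest. Trim12a missed the threshold when Klf5-knockout replicate 3 or control replicate 2 or 3 was left out (0.58, 0.55 and 0.42, with adjusted p of 0.0543, 0.0765 and 0.0985 in that order). Trim12c missed it when control replicate 2 was left out (0.35, with adjusted p of 0.0541). The platform table gives other rows to several of these copies at once, so which copy the values belong to is uncertain.

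The rest of the chromosome 7 stretch did not pass. Trim6, which comes first in RefSeq order, read 6.95, 6.81 and 6.66 in the Klf5-knockout arrays and 6.65, 6.53 and 6.53 in the controls, at 0.24 (SE 0.08, adjusted p = 0.0834). Its lowest knockout array nearly met its highest control. Trim34a stood at −0.09, Trim30a at 0.07 and Trim30d at −0.06, with overlapping groups. The remaining interferon-linked members were Trim21 (−0.06), the cytosolic antibody receptor, Trim26 (0.02), Trim38 (−0.09) and Trim56 (0.03), none of which passed.

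**Figure D3:**
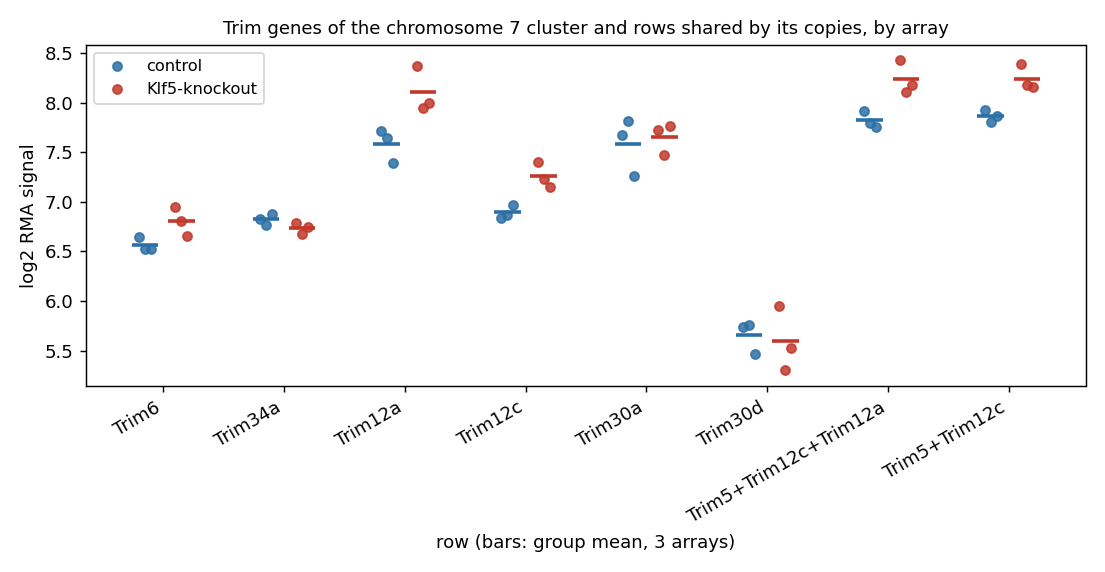
Log2 RMA signal on each array for the Trim genes of the chromosome 7 cluster and for the 2 rows that the platform table gives to several copies; points are single arrays (3 per group) and bars are group means. The Trim12a and Trim12c rows and both shared rows are higher in every Klf5-knockout array than in any control, and Trim34a, Trim30a and Trim30d overlap.

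Of the 4 members with NHL repeats, a propeller fold that binds RNA or protein, 2 fell and 2 did not pass, with a median of −0.24. Of all genes, 8.58% fell and 8.95% rose. Trim71, an RNA-binding repressor of early embryonic cells and a target of the let-7 microRNAs, read 8.82, 8.74 and 8.93 in the Klf5-knockout arrays and 9.40, 9.36 and 9.33 in the controls. It fell by 0.53 (SE 0.06, adjusted p = 0.00124). Trim2, a ligase of neurofilament light chain in neurons, read 9.50, 9.79 and 9.88 against 10.23, 10.28 and 10.33. It fell by 0.56 (SE 0.10, adjusted p = 0.00819). Neither group of values overlapped, the lowest Trim2 value was that of Klf5-knockout replicate 1, and both calls were kept on leaving out any one array. Trim3 (0.10) and Trim32 (0.06) did not pass. Of 6 markers of enteric neurons and glia with a row, 1 rose (Sox10) and 0 fell.

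Of the members without a RING finger, Trim14 and Trim29 fell and 3 did not pass (Trim16 at 0.03, Trim44 at 0.07 and Trim66 at 0.11). Of all genes, 8.58% fell. Trim29, known from stratified and glandular epithelia, read 7.07, 7.53 and 7.64 in the Klf5-knockout arrays and 7.94, 7.87 and 8.13 in the controls. It fell by 0.56 (SE 0.15, adjusted p = 0.0359), with no overlap and with Klf5-knockout replicate 1 the lowest. It missed the threshold when Klf5-knockout replicate 2 or control replicate 1, 2 or 3 was left out (−0.62, −0.58, −0.62 and −0.49, with adjusted p of 0.0561, 0.083, 0.0716 and 0.121 in that order).

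Rises were found for 1 of the 2 members anchored in membranes and for single members of other domain classes, against 8.95% of all genes. Trim13, anchored in the endoplasmic reticulum, where it takes part in protein degradation, read 10.67, 10.65 and 10.62 in the Klf5-knockout arrays and 10.20, 10.24 and 10.31 in the controls. It rose by 0.40 (SE 0.05, adjusted p = 0.00158). Trim59, the other anchored member, did not pass (0.19, SE 0.08, adjusted p = 0.138). Trim62, a PRY-SPRY ligase linked to polarity of mammary epithelium, read 9.60, 9.58 and 9.55 against 9.27, 9.16 and 9.27 and rose by 0.34 (SE 0.05, adjusted p = 0.0038). Trim13 and Trim62 had the tightest knockout arrays among the rises, and both kept their calls on leaving out any one array.

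Markers of the mesothelium, the outer lining of the gut, moved in the same arrays as these rises. Of 4 such markers, 3 rose (Wt1 by 0.87, adjusted p = 0.0161; Lrrn4 by 0.64, adjusted p = 0.0408; Upk3b by 0.50, adjusted p = 0.0321) and Msln fell by 0.52 (adjusted p = 0.00387), against 8.95% of all genes higher and 8.58% lower. Their summed linear signal was 5030 to 6770 in the Klf5-knockout arrays and 3410 to 4530 in the controls. The 3 rises were not stable, with 0 to 3 markers higher on leaving out 1 array (0 without control replicate 2 or 3). The part of these markers in the 8 Trim rises was not tested. Of 7 smooth muscle markers 0 fell and 1 rose, and of 5 endothelial and 5 fetal stomach and pancreas markers 0 passed limma's test (1, Kdr, had an unadjusted p under 0.05).

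Trim9, a brain ligase that acts in netrin-guided axon branching, was the 1 of 4 neuronal and microtubule-binding members to pass, against 17.5% of all genes. It read 8.05, 8.19 and 7.76 in the Klf5-knockout arrays and 7.56, 7.26 and 7.52 in the controls and rose by 0.55 (SE 0.12, adjusted p = 0.0202). It missed the threshold when Klf5-knockout replicate 1 or 2 or control replicate 2 or 3 was left out (0.53, 0.46, 0.46 and 0.59, with adjusted p of 0.0507, 0.0519, 0.0655 and 0.0522 in that order). The summed linear signal of the enteric neuron and glia markers was 4900 to 5690 in the Klf5-knockout arrays and 4510 to 4980 in the controls, and its part in the Trim9 value was not tested. Trim36 (−0.11), Trim46 (0.08) and Trim67 (0.11) did not pass.

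The smallest called changes were those of Trim23, Trim45, Trim24 and Trim27. Trim23, which carries an ARF GTPase domain, read 9.42, 9.19 and 9.35 in the Klf5-knockout arrays and 9.12, 9.05 and 9.01 in the controls (0.26, SE 0.07, adjusted p = 0.0352). Trim45, with a filamin repeat, read 8.42, 8.47 and 8.33 against 8.18, 8.24 and 8.20 (0.20, SE 0.05, adjusted p = 0.0359). Trim24, a nuclear receptor cofactor with a PHD finger and bromodomain, read 10.35, 10.18 and 10.33 against 10.08, 10.09 and 10.10 (0.20, SE 0.06, adjusted p = 0.0486). Its relatives Trim28 (0.06), Trim33 (0.08) and Trim66 (0.11) did not pass. Trim27, a transcriptional repressor of the PRY-SPRY class, read 11.28, 11.24 and 11.24 against 11.38, 11.44 and 11.44 (−0.16, SE 0.04, adjusted p = 0.0418). None of these 4 genes had overlapping groups, yet each depended on single arrays. Trim27 missed the threshold without any one of the 6 arrays (adjusted p = 0.0584 to 0.132). The other 3 each missed it in 5 of the 6 such fits, Trim23 with adjusted p up to 0.114, Trim24 up to 0.146 and Trim45 up to 0.10; the exception was the fit without Klf5-knockout replicate 2 for Trim23 and Trim24, and the fit without Klf5-knockout replicate 3 for Trim45.

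**Figure D4:**
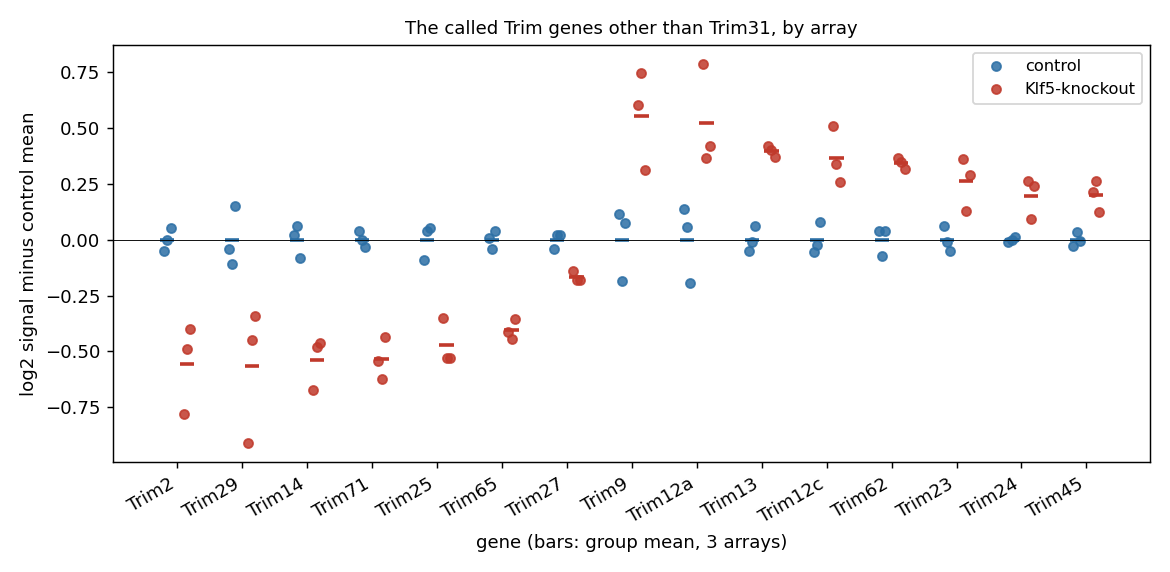
Log2 signal of the 15 called Trim genes other than Trim31 on each array, minus the mean of that gene's controls; points are single arrays (3 per group), bars are group means, and genes are ordered from the largest fall to Trim27 and then from the largest rise. No gene has overlapping groups. Klf5-knockout replicate 1 gives the knockout value farthest from the controls for Trim2, Trim29, Trim14, Trim12a, Trim12c, Trim13, Trim23, Trim24 and Trim62.

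In the other groups no member passed. The striated muscle ligases Trim54 (−0.03), Trim55 (0.20), Trim63 (0.02) and Trim72 (0.05), 4 of 4 measured, did not pass, nor did any of 7 striated muscle markers. Of the red cell members, Trim58, a ligase of maturing red cells, stood at 0.24 (SE 0.09, adjusted p = 0.134). Of the germ line and early embryo members with a row, Trim42 (0.07), Trim69 (−0.00) and Trim75 (0.04) did not pass. In the PRY-SPRY class outside these groups, Trim62 rose, Trim27 fell and 7 did not pass: Trim7 (0.03), Trim11 (0.08), Trim35 (0.08), Trim39 (−0.03), Trim41 (0.13), Trim47 (−0.07) and Trim68 (0.27, SE 0.09, adjusted p = 0.0838). Of all genes, 8.58% fell and 8.95% rose. Trim37, with a MATH domain, stood at −0.15 (SE 0.05, adjusted p = 0.114) and Trim8, without PRY-SPRY, at 0.03. Trim52 (0.04) and Trim80 (−0.12), which were in no group, did not pass either.

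Genes that share domains or steps with the Trim family were read from lists, whose counts stand beside 8.58% of all genes lower and 8.95% higher. Of 10 relatives with other names, 1 fell and 1 rose. Bspry, a B-box and SPRY gene of epithelia, fell by 1.25 (SE 0.08, adjusted p = 0.000106), and Fsd1, a microtubule-binding relative with an SPRY domain, rose by 0.47 (SE 0.05, adjusted p = 0.00114). Mid1, Mid2, Pml and Mefv, whose proteins are also counted in the TRIM family, stood at 0.31 (adjusted p = 0.0632), −0.08, −0.00 and 0.10 and did not pass. Of 17 genes of ubiquitin activation and conjugation with a row, 0 fell and 3 rose by limma, with a median of 0.10, a share called near the 17.5% of all genes. The 3 were Ube2e3 by 0.25 (SE 0.05, adjusted p = 0.00921), Ube2w by 0.23 (SE 0.05, adjusted p = 0.0134) and Ube2e2 by 0.17 (SE 0.04, adjusted p = 0.0345). The call of Ube2e2 depended on every array (adjusted p = 0.0598 to 0.118 on leaving out one). Ube2e3 and Ube2w kept their calls in those fits. With the replicate number as a block they missed the threshold (limma adjusted p = 0.0558 and 0.0545), when 10.1% of all genes passed. With the male share as covariate all 3 missed it, as did most of all genes. Ube2d1, Ube2d2a and Ube2d3, E2 enzymes that many RING ligases use, stood at 0.13, −0.04 and 0.03 and did not pass.

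Of 20 other RING ligase genes with a row, 5 fell and 1 rose, with a median of −0.03, against 8.58% lower and 8.95% higher among all genes. The largest fall among them was that of Rnf186, a ligase of the intestinal epithelium, by 1.77 (SE 0.08, adjusted p = 2.48e-05). Cblc, the Cbl gene of epithelia, fell by 1.04 (SE 0.07, adjusted p = 9.86e-05), Rnf43, which removes Wnt receptors, by 0.97 (SE 0.09, adjusted p = 0.000586) and Rnf128 by 0.60 (SE 0.09, adjusted p = 0.00528). These 4 genes kept their calls on leaving out any one array. With the male share as covariate, Rnf186 kept its call (−1.77, limma adjusted p = 0.0355). In that fit Cblc, Rnf43 and Rnf128 lost theirs (−0.89, −0.88 and −0.64, with adjusted p of 0.117, 0.225 and 0.332 in that order), and 0.421% of all genes passed. Znrf3, a relative of Rnf43, fell by 0.17 (adjusted p = 0.0456), and Xiap, an inhibitor of caspases, rose by 0.19 (adjusted p = 0.0451). Leaving out 1 array at a time, 4 to 5 genes of this list fell and 0 to 1 rose.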

How the data were processed

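RNA of the 6 pools was read on Affymetrix Mouse Gene ST arrays. The authors deposited log2 signals; the submitters' processing notes name RMA and version 1.1 of Affymetrix Expression Console. RMA makes the arrays' distributions alike, so a shift of most genes would be removed. The array annotation's genome build was not given in the sources used here. Arrays have no read depth, and their number limits precision.

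The table held 35557 rows. Of these, 21789 had 1 gene symbol, 1621 had several and 12147 are unnamed here. Symbols were updated by gene ID to RefSeq (GRCm38.p6; 21698 rows matched), and the brightest row per gene was kept, giving 19938 genes; each of the 58 Trim genes had a single row. Groups came from the titles. limma 3.58.1 in R 4.3.3 (lmFit, eBayes) compared Klf5-knockout with control, with Benjamini-Hochberg adjustment over all genes and a threshold of 0.05. The pipeline was tested on simulated data. Motifs were searched on both strands and windows aligned with Biopython 1.88.

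The members, groups, lists and alternatives were chosen with earlier results of these data known. Named were all called and gut-enriched members, up to 4 called members of each list by smallest p, and, with their values already in view, the remaining members and Mavs, Nlrp3, Ddx58, Usp18, Ifit2, Stat2, Znrf3, Xiap, Mid1, Mid2, Pml, Mefv, Ube2d1, Ube2d2a, Ube2d3 and Cldn6. The labels do not say if the pools are of separate litters, so p-values reflect only how these pools vary.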

Additional observations from a re-analysis of the deposited data

Results flagged for a closer look

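The platform table gives 2 rows to several copies of the chromosome 7 cluster, which the comparison of genes with a row of their own did not use, and both were higher in the Klf5-knockout arrays than in the controls. The row shared by Trim5, Trim12c and Trim12a read 8.43, 8.11 and 8.18 on the Klf5-knockout arrays against 7.92, 7.80 and 7.76 on the controls, in replicate order, a difference of 0.41 on the log2 scale. The row shared by Trim5 and Trim12c read 8.39, 8.18 and 8.16 against 7.93, 7.81 and 7.87, a difference of 0.37. In both rows the groups did not overlap, as in 36.0% of all genes tested. These rows can hold probes that also measure Trim12a and Trim12c, so they are not independent of the rises of those genes, and no test was run on them.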

How the results depend on the processing

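Across 6 fits without 1 array and 12 other settings, the 16 called and 3 other gut-enriched members gave 329 values, of which 269 stayed on the same side of the threshold, 60 lost a call, 0 gained one and 0 reversed. Some of the 12 settings could hardly change a Trim call, and their values are among the 269. Each Trim gene had a single row and no Trim symbol was updated. Averaging rows, fitting every row on its own or taking the platform table's symbols thus left the Trim fold changes as they were. A threshold of 0.1 could add a call but not remove one. Trim31 kept its call wherever it was tested; it was not among the genes kept with the lowest 50% left out. Of the 16 called genes, 8 kept their call without any one array (Trim31, Trim71, Trim65, Trim13, Trim14, Trim25, Trim62 and Trim2). Leaving out 1 array gave 6 to 7 Trim genes lower, 2 to 6 higher and a median of 0.03 to 0.06 over the Trim genes. In these fits 10% to 13.8% of all genes were called. The main counts were 8 lower and 8 higher. They became 4 and 5 with the lowest 50% of genes left out, when 25 Trim genes were tested and 36.1% of all genes passed, and 1 and 0 with the male share as covariate. Higher genes numbered 5 with array medians centred. With the replicate number as a block, 7 were lower and 3 higher. Deviations of same-numbered arrays correlated at −0.145, −0.274 and −0.031, and 0 of 6 arrays correlated best with its own number. These values gave no sign of pairing by number, a question that 3 arrays a group and the labels cannot settle. The median over the Trim genes, 0.06, was 0.03 with quantile normalization or centring and 0.09 with the male share. The gut-enriched minus other median, −0.12 (SD between replicates 0.09), was −0.18 to −0.04 on leaving out 1 array (−0.04 without Klf5-knockout replicate 1, −0.06 without control replicate 1 and −0.18 without Klf5-knockout replicate 2), −1.47 with the lowest 25% left out, where 2 gut-enriched genes remained, and 0.02 with the male share; other causes were not tested.

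The 3 arrays a group limit precision: standard errors of the Trim genes ran from 0.04 to 0.29, and 10 of 58 lay in the dimmest 25% of genes, where changes are understated. The male share and the group cannot be fully told apart, since all Klf5-knockout arrays were above all controls in it.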

Other observations

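Rows that the platform table shares between a Trim gene and other genes, outside the Trim5 copies, overlapped between the groups. The row of Trim17 and the histone gene H2aw read 8.60 to 8.64 in the Klf5-knockout arrays and 8.60 to 8.62 in the controls. The row of Trim30b and Gm38525 read 5.53 to 5.69 against 5.54 to 5.69, and that of Trim61 and Trim60 read 6.28 to 6.36 against 6.27 to 6.30. The row of Trim43a, Trim43b and Trim43c, genes of the early embryo, read 5.04 to 5.14 against 4.99 to 5.04.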
